A study of Rattus norvegicus with 2 samples.

Results

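The integrin subunits of the vessel wall were followed across the cell classes of the rat carotid artery. They were 10 genes, taken by their symbols from the 32623 genes listed: the alpha subunits Itga1, Itga5, Itga7, Itga8, Itga9, Itga11 and Itgav, and the beta subunits Itgb1, Itgb3 and Itgb5. All 10 were listed and had UMIs. The rule that named them uses no measured value, but they were chosen with earlier results of these data known. None of them was used to sort cells into classes.

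The 2 groups compared were the normal left carotid arteries without treatment (control group) and the right carotid arteries after carotid balloon injury (case group), both taken 28 days after injury from male SD rats. The methods name 2 rats, whose left arteries formed the control and right arteries the case group, so the groups share animals. Arteries of both rats were pooled in each group and gave a single 10x Genomics library of polyA RNA. The age was 12 weeks in the labels and 8 weeks in the methods, which do not state the step it refers to. Rats of 8 weeks at injury would have the age in the labels 28 days later. The control arteries came from the side opposite to the injury. With 1 library per group there was no replicate, no test between the groups was possible, and every interval below is a 95% interval that covers counting error only.

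Integrins are receptors made of an alpha and a beta chain that span the cell membrane and hold cells to the extracellular matrix. The alpha chain largely sets which matrix protein is bound, and the beta chain links the receptor through talin and kindlin to the actin cytoskeleton. In the artery wall they anchor vascular smooth muscle cells (VSMCs) to laminin, collagen and fibronectin, and they are known to take part in the attachment and migration of VSMCs after injury.

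RefSeq (GRCr8) held the bases before the start of transcription for 8 of the 10 genes. The 4 shown are those on which the results turn, namely Itga8 and Itgb1, which had the most UMIs, Itga5, which differed in VSMCs, and Itga11, which differed in fibroblasts. Each is the 250 bases before the start, from 5′ to 3′, with matches in capitals to GGGCGG (GC box), CATTCC (MCAT) or TGANTCA (AP-1) on either strand. The stretches were, in the same order, chr17:80410634-80410883 (minus strand), chr19:73602027-73602276 (plus strand), chr7:136381306-136381555 (minus strand) and chr8:72041182-72041431 (plus strand).
Itga8: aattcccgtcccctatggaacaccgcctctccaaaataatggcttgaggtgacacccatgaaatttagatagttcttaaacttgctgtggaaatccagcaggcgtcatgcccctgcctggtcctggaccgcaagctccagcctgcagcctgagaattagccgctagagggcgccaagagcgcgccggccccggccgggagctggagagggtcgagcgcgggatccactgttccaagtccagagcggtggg
Itgb1: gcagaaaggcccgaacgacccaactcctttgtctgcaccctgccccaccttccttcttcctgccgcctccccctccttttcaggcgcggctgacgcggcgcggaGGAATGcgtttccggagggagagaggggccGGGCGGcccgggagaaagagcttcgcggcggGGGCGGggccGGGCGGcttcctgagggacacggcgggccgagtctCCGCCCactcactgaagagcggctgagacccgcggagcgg
Itga5: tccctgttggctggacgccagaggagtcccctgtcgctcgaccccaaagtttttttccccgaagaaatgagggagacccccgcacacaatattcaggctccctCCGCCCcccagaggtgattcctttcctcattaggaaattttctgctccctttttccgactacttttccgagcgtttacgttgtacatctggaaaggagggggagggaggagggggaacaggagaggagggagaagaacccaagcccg
Itga11: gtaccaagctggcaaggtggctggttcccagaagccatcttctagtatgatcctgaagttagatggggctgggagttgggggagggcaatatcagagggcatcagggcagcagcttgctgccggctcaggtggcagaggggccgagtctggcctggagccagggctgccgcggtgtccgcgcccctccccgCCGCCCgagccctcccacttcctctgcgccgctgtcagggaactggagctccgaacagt
The GC box was found 4 times for Itgb1, 1 time each for Itga5 and Itga11 and not for Itga8, and the MCAT motif was found for Itgb1 alone among the 8 genes. Of 33469 such stretches in the table, 30.5% held the GC box, 12.1% the MCAT motif and 6.34% the AP-1 motif. A CArG box, the motif named for serum response factor, was also searched for and had a match in 1.5% of the stretches. Neither it nor the AP-1 motif had a match in the 8 genes. These are matches of letters only, and no binding was measured.

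The 2 libraries held 24968329 (control) and 28232614 (case) UMIs in 3321 and 5656 barcodes, and their assignment to the groups rests on these barcode numbers, which equal those the study states before quality control. After filtering 2742 and 4930 cells remained, with medians of 8880 and 5156 UMIs, and 21 barcode sequences occurred in both libraries. Of these, 513 control and 40 case cells had fewer than 1000 UMIs and were left out, so this cut fell unevenly on the libraries. The 2229 and 4890 cells of at least 1000 UMIs were sorted by the share of their UMIs that came from marker genes. VSMCs, fibroblasts, ECs and macrophages below are cells that passed only the gate of that class. These were 1144 control and 2624 case VSMCs, 727 and 1443 fibroblasts, 55 and 254 ECs, and 33 and 91 macrophages. Another 19 and 45 cells passed the Schwann cell gate, 1 and 4 the T cell gate, and 141 and 136 cells both the VSMC and the fibroblast gate. VSMC markers made up 25922 and 20613 counts per 1000000 UMIs (CPM) in control and case VSMCs and 843 and 850 CPM in fibroblasts, a gap that the gates themselves set. VSMCs of the 2 libraries differed in depth (median 11998.5 against 5429 UMIs) and lay largely in different clusters, groups of cells with like expression. Of the control VSMCs 549 were in cluster 4, against 180 of the case VSMCs, while 26 and 895 were in cluster 3 and 209 and 797 in cluster 1. Fibroblasts were also spread unevenly, with 190 control and 750 case cells in cluster 2, 264 and 331 in cluster 5 and 246 and 285 in cluster 6. Of the ECs, 48 and 130 were in cluster 10 and 7 and 123 in cluster 12.

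The level of a subunit is given as CPM, the UMIs of the gene per 1000000 UMIs summed over the cells of a class. A change is the log2 ratio of case over control CPM, and a gene is counted as past 1.5-fold only when its mean level was at least 10 CPM. Such counts come from a single pair of libraries and are no test. UMIs are counted at the 3′ end, and levels of different genes are therefore not set against each other.

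**Figure D1:**
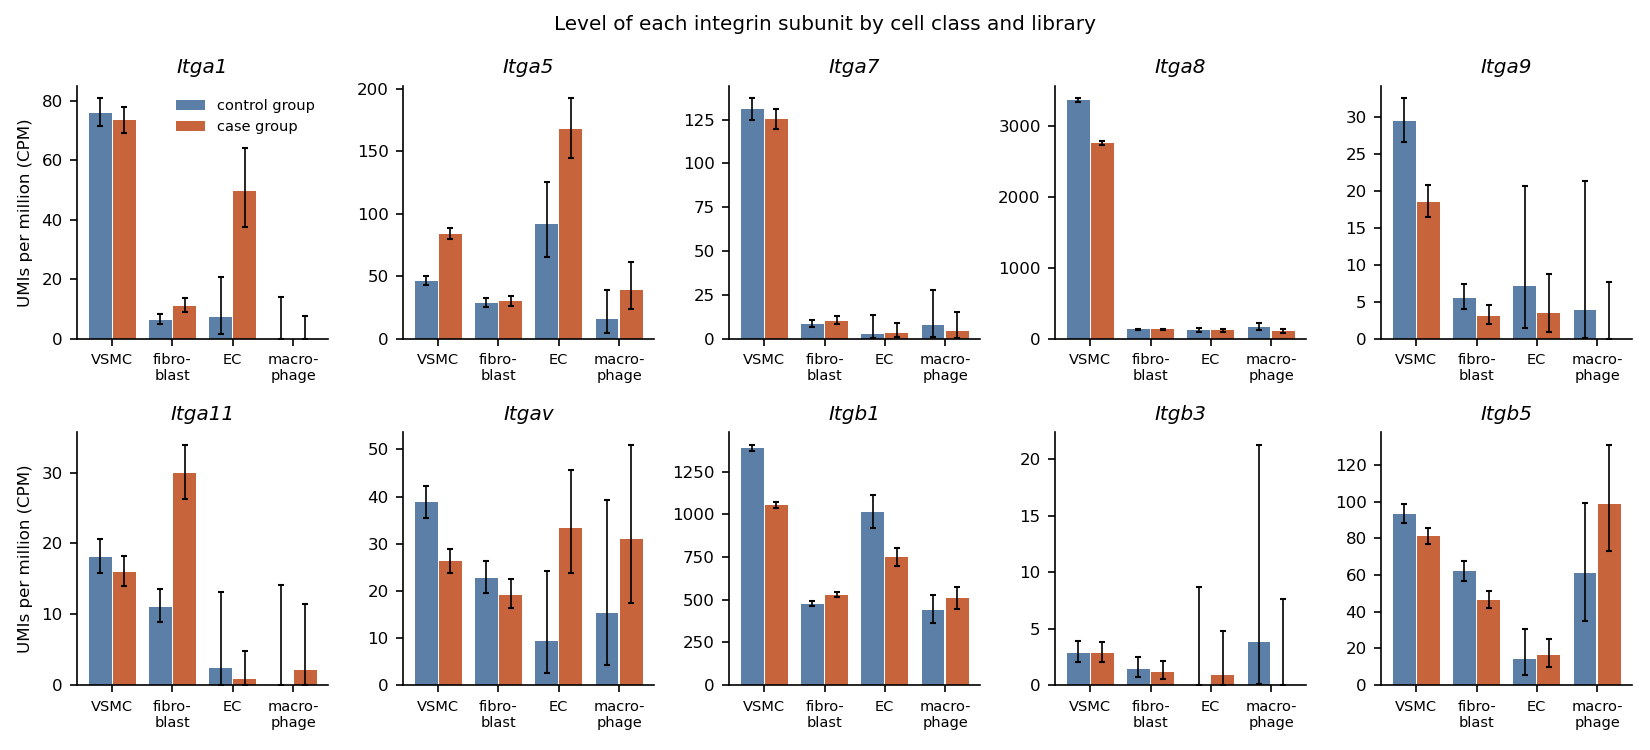
Level (CPM, linear axis from 0) of the 10 integrin subunits in VSMCs, fibroblasts, ECs and macrophages of the control (blue) and case (orange) libraries. Bars are UMI sums over cells and lines are exact Poisson 95% intervals. Itga8 stood at 3370 and 2769 CPM in VSMCs and at 161 CPM or less in the other 3 classes, whereas Itgb1 was above 440 CPM in all 4.

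Among VSMCs, fibroblasts, ECs and macrophages, 5 of the 10 subunits had their highest level in VSMCs in both libraries (Itga1, Itga7, Itga8, Itga9 and Itgb1), and 1, Itga5, had its highest level in ECs. The other 4 (Itga11, Itgav, Itgb3 and Itgb5) had their highest level in different classes in the 2 libraries. Between the groups, Itga5 was higher in case VSMCs and ECs, Itga11 was higher in case fibroblasts, and Itga1 and Itgav were higher in case ECs. Itga9 was lower in case VSMCs. Itga8 and Itgb1, which had the most UMIs, were also lower in case VSMCs but stayed within 1.5-fold.

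Counted over the members, 9 had at least 10 CPM in VSMCs, of which 1 (Itga5) was up and 1 (Itga9) down past 1.5-fold. Of all genes tested in VSMCs, 5.56% were up and 15% down. In fibroblasts 1 of 6 members was up and 0 down, against 6.39% and 13.8% of all genes. In ECs 3 of 6 members were up (Itga1, Itga5 and Itgav) and 0 down, against 18.2% and 32.5%. Genes past 1.5-fold were thus common in ECs, and 1 of 9 or 1 of 6 is close to the shares of all genes. Itga1 and Itgav had 7.08 and 9.44 CPM in control ECs (3 and 4 UMIs). They reached a mean of 10 CPM only through the case library, so 3 of 6 up in ECs cannot be read as an excess. In VSMCs the median of the members was -0.20 and that of all genes -0.13, and in ECs it was 0.53 and -0.21. The median of the members in ECs includes Itga1 and Itgav. TMM scaling moved the median of all genes in VSMCs to -0.01 and the numbers up and down from 366 and 988 to 563 and 628. In ECs it moved the median to 0.08 and the numbers from 1259 and 2246 to 1915 and 1488. The small changes of Itga1, Itga7 and Itgb3 in VSMCs and of Itga8 in fibroblasts and ECs took the other sign under TMM.

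**Figure D2:**
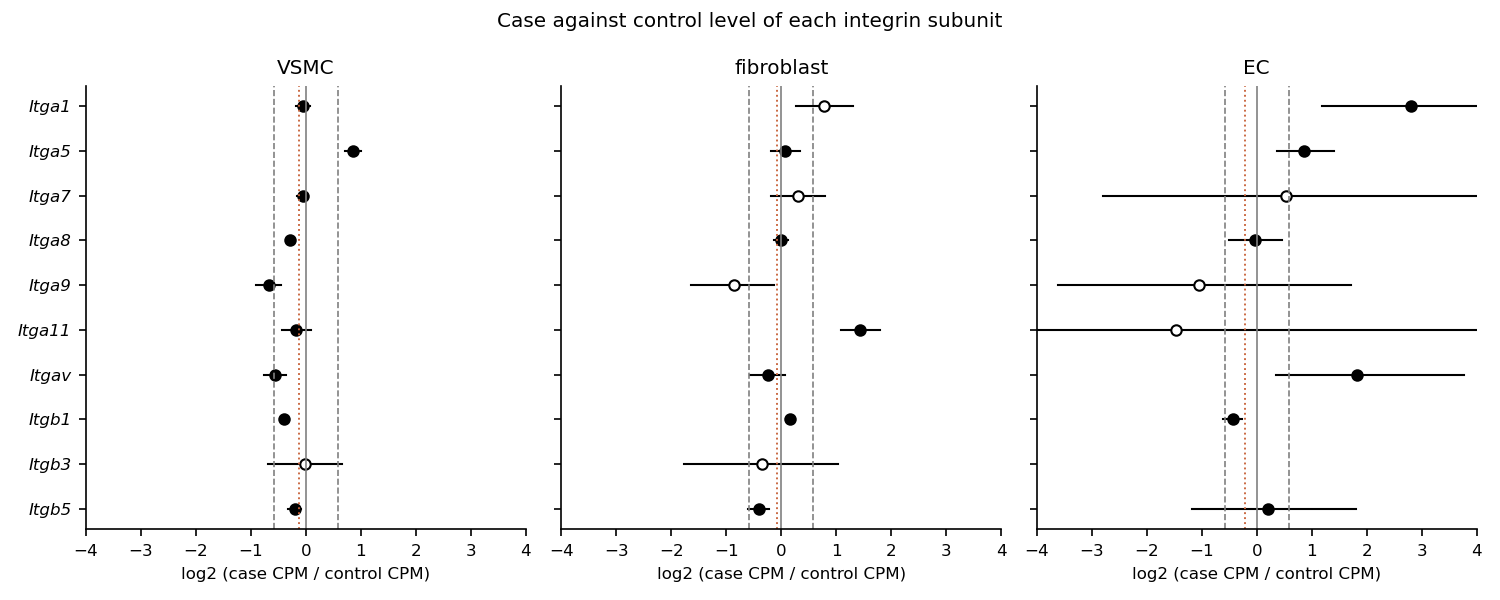
log2 ratio of case over control CPM of the integrin subunits in VSMCs, fibroblasts and ECs, with exact conditional 95% intervals, which are cut at the edges of the axis. Filled points had a mean of at least 10 CPM, grey dashed lines mark 1.5-fold and the orange dotted line the median of all genes tested. Itga5 in VSMCs (0.86), Itga11 in fibroblasts (1.43) and Itga1, Itga5 and Itgav in ECs lay to the right of 1.5-fold, and Itgb3 in ECs has no point since it had no UMI in the control library.

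Among the receptors for RGD ligands, Itga8 (alpha 8, which pairs with the Itgb1 chain and binds nephronectin and fibronectin) stood at 3370 CPM (interval 3339 to 3402) in control VSMCs and at 2769 CPM (2742 to 2796) in case VSMCs. It lay at 132 and 131 CPM in fibroblasts, at 118 and 115 CPM in ECs and at 161 and 103 CPM in macrophages. Among these 4 classes the level in VSMCs was 21.0 times that of the next one in the control library (15.5 to 29.1) and 21.1 times in the case library (19.8 to 22.4). The few Schwann cells had 211 CPM from 20 UMIs and 311 CPM from 42 UMIs, and VSMCs lay above them by 15.97 times (10.3 to 26.2) and 8.90 times (6.58 to 12.4). Fibroblasts, ECs and macrophages did not separate from each other in the control library, where the intervals of fibroblasts (124 to 140), ECs (87.6 to 156) and macrophages (116 to 217) overlapped. The near equal levels of the 2 libraries in fibroblasts and ECs were not kept in every set of cells. In cells of 3000 to 10000 UMIs, Itga8 was lower in the case library by over 1.5-fold in both of these classes. In such fibroblasts the median was 1.06 (control) and 0 (case) UMIs per 10000, and single cells reached 80.8 and 64.4. The part of these high cells and of depth in the difference was not tested.

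Itga8 in the other classes was also set against the UMIs of VSMC markers. These markers also gated the VSMCs, so the gates set how the denominator differs between VSMCs and the other classes. The ratios are therefore given as values only, and differences between classes in them are no test. For each 1000 UMIs of the 6 VSMC markers there were 130 UMIs of Itga8 in control VSMCs (129 to 131), 156 in fibroblasts (147 to 167), 80.9 in ECs (59.4 to 108) and 165 in macrophages (116 to 230). In the case library the values were 134 in VSMCs (133 to 136), 155 in fibroblasts (145 to 165), 100 in ECs (83.5 to 120) and 188 in macrophages (136 to 255). The median depths of macrophages were 8348 and 5003 UMIs. Fibroblasts and ECs as whole classes had Itga8 at levels whose intervals overlapped those of macrophages in both libraries. Within fibroblasts the level was not even, and in cluster 6 it was 175 CPM in the control and 87.8 CPM in the case library, against 78.1 and 80.8 CPM in cluster 5. Fibroblasts outside the subclasses named below had 208 CPM in the case library (189 to 228), above case macrophages (76.5 to 136). Whether Itga8 UMIs outside VSMCs came from the cells themselves, from free RNA or from doublets was not tested. The same ratio for Itgb1, with the same limit, was 53.6 in control VSMCs, 565 in fibroblasts (544 to 588), 696 in ECs (614 to 788) and 453 in macrophages (360 to 567).

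Nearly every VSMC carried Itga8. With all UMIs used, 99.0% of control and 99.2% of case VSMCs had an Itga8 UMI, against 57.4% and 34.8% of fibroblasts and 63.6% and 36.3% of macrophages. When each cell was thinned to 1000 UMIs, the shares were 92.7% of control VSMCs (91.0 to 94.1) and 88.03% of case VSMCs (86.7 to 89.3). The share in fibroblasts was 12.2% and 9.36%, and that in macrophages 21.2% (9.0 to 38.9) and 6.59% (2.46 to 13.8). In single VSMCs of 3000 to 10000 UMIs, Itga8 ranged from 3.29 to 177 UMIs per 10000 in the 241 control cells, with a median of 35.0. In the 2200 case cells it ranged from 0 to 101, with a median of 25.7, and 5 of these cells had none. The 2 distributions overlapped over most of their range.

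The change of Itga8 in VSMCs was -0.28 (-0.30 to -0.26), and differences between clusters were not tested. In clusters 1, 7, 8 and 9 the change lay between -0.30 and -0.27. In cluster 4 the levels were 3540 and 3638 CPM, a change of 0.04 (-0.0048 to 0.08), and in cluster 3 they were 2809 and 3007 CPM, a change of 0.10 (-0.04 to 0.24). In clusters 4 and 3, which held the largest shares of control and case VSMCs, the case value of Itga8 was thus not below the control value.

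**Figure D3:**
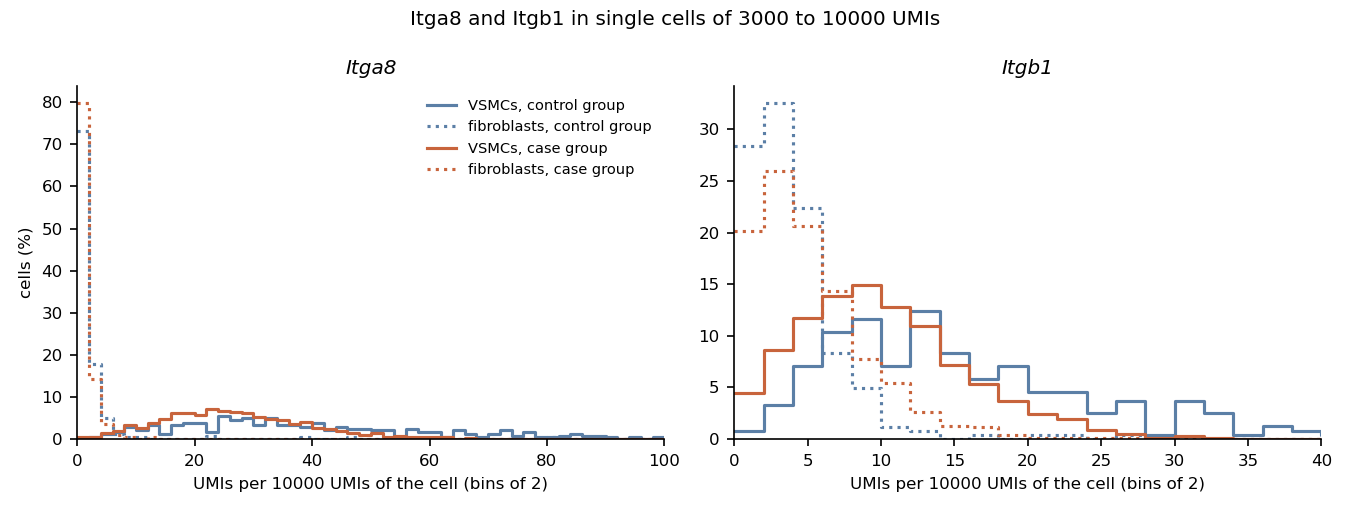
Itga8 (left) and Itgb1 (right) in single VSMCs (solid lines) and fibroblasts (dotted lines) of 3000 to 10000 UMIs, control in blue and case in orange. The x axis is UMIs of the gene per 10000 UMIs of the cell in bins of 2 (cells above 100 for Itga8 and 40 for Itgb1 are not shown) and the y axis the percentage of cells. The medians of VSMCs were 35.0 (control) and 25.7 (case) for Itga8 and 13.4 and 9.52 for Itgb1.

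Itga5 (alpha 5, which pairs with the Itgb1 chain to form the classical fibronectin receptor) was the only member above 10 CPM that was higher in case than in control VSMCs by over 1.5-fold. It stood at 46.3 CPM in control VSMCs (603 UMIs) and at 84.0 CPM in case VSMCs (1259 UMIs), and the intervals (42.6 to 50.1 and 79.4 to 88.8) did not overlap. The log2 change was 0.86 (0.72 to 1.00), or 1.82-fold, while the median change of all 6586 genes tested in VSMCs was -0.13. At 1000 UMIs per cell 4.02% of control VSMCs (2.96 to 5.33) and 8.77% of case VSMCs (7.71 to 9.91) had an Itga5 UMI. Without thinning the shares were 32.2% and 30.6%, at median depths of 11998.5 and 5429 UMIs.

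Itga5 was also read by cluster, and differences between clusters were not tested. In cluster 1 it stood at 50.2 CPM in the control library and 99.8 CPM in the case library, with a log2 change of 0.99 (0.72 to 1.27). In cluster 7 it rose from 80.0 to 153 CPM, a change of 0.94 (0.65 to 1.24). In cluster 4, which held the largest share of control VSMCs, the values were 35.0 and 45.7 CPM and the change was 0.39 (-0.04 to 0.79). In cluster 3, which held the largest share of case VSMCs, the values were 64.3 CPM from 10 UMIs and 50.4 CPM, with a change of -0.35 (-1.26 to 0.73). Clusters 8 and 9, with fewer UMIs, had changes of 0.71 (0.03 to 1.37) and 0.59 (-0.27 to 1.53). When VSMCs were split by genes in place of clusters, Itga5 was higher in the case library in each subclass. The change was 1.13 (0.91 to 1.36) in VSMCs with a Notch1 UMI, 0.96 (0.62 to 1.30) in Spp1-high VSMCs (at least 5 Spp1 UMIs per 10000) and 0.72 (0.50 to 0.94) in the rest. Case VSMCs with a Notch1 UMI had the highest of these levels, at 121 CPM, but a Notch1 UMI is found more often in deep cells (median 14662 and 6125.5 UMIs in the 2 libraries).

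**Figure D4:**
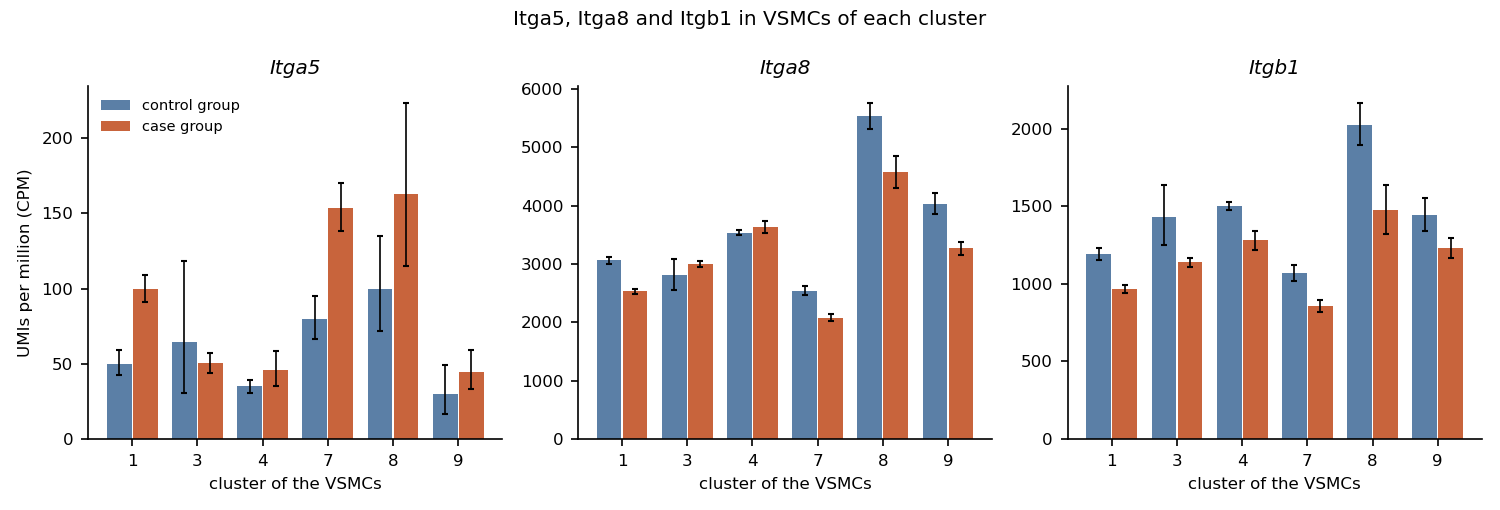
Level (CPM, linear axis from 0) of Itga5, Itga8 and Itgb1 in VSMCs of the 6 clusters with at least 100 VSMCs, control in blue and case in orange, with exact Poisson 95% intervals. For Itga5 the intervals of the 2 libraries were apart in clusters 1 and 7 and overlapped in clusters 3, 4, 8 and 9, and Itgb1 was lower in the case library in all 6 clusters.

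In ECs Itga5 reached its highest level in both libraries, 92.0 CPM in control (39 UMIs) and 168 CPM in case ECs (196 UMIs), which was 1.99 times (1.40 to 2.75) and 2.00 times (1.71 to 2.32) the level in VSMCs. The log2 change in ECs was 0.86 (0.36 to 1.40). By cluster it was 0.84 (0.23 to 1.49) in ECs of cluster 10 and 0.10 (-0.88 to 1.27) in those of cluster 12, where the control library had 9 UMIs in 7 cells. Fibroblasts stood at 28.5 and 30.0 CPM, with a change of 0.08 (-0.19 to 0.34). The interval of the change thus held 0 in fibroblasts and lay above it in VSMCs and ECs, and the difference between the classes was not tested.

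Itgav (alpha v, which pairs with several beta chains and binds vitronectin, osteopontin and latent TGF beta) stood at 38.7 CPM in control VSMCs (505 UMIs) and 26.2 CPM in case VSMCs (393 UMIs). The log2 change was -0.56 (-0.76 to -0.37), just within 1.5-fold, and it was past 1.5-fold under the stricter gate (-0.59), with cells weighted equally (-0.63), in VSMCs of cluster 1 (-0.65) and in cells of 3000 to 10000 UMIs (-0.83). In cluster 4 the change was -0.30 (-0.79 to 0.15), and in cluster 7 it was -0.16 (-0.74 to 0.43). In clusters 8 and 9 it was -0.70 (-1.73 to 0.24) and -0.20 (-1.10 to 0.74). In cluster 3 it was 0.53 (-1.05 to 2.82), with 3 control UMIs. Differences between these clusters were not tested. Itgav was at 22.7 and 19.2 CPM in fibroblasts. In ECs the order was the other way, with 9.44 CPM in control ECs (4 UMIs, interval 2.57 to 24.2) and 33.4 CPM in case ECs (39 UMIs, interval 23.7 to 45.6), a change of 1.82 (0.35 to 3.77). The control value in ECs rests on 4 UMIs, and the values varied between kinds of EC, a difference that was not tested. In ECs with a Plvap or Emcn UMI the levels were 35.5 and 36.9 CPM, a change of 0.06 (-1.73 to 2.47), and in the other ECs 2.95 CPM from 1 UMI and 31.0 CPM. In ECs of cluster 12 the levels were 62.8 CPM from 3 UMIs and 40.3 CPM, and in cluster 10 they were 2.66 CPM from 1 UMI and 28.3 CPM. Macrophages lay at 15.3 and 30.9 CPM from 4 and 15 UMIs, so their intervals overlapped those of ECs.

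Among the collagen receptors, Itga1 (alpha 1, which binds collagen IV of basement membranes) stood at 76.1 CPM in control VSMCs and 73.7 CPM in case VSMCs, a log2 change of -0.05 (-0.17 to 0.08). In fibroblasts it was at 6.38 CPM (53 UMIs) and 10.98 CPM (87 UMIs), and in macrophages no UMI was found in either library, which allows up to 11.5 and 6.19 CPM. In ECs it was at 7.08 CPM in the control library (3 UMIs, interval 1.46 to 20.7) and at 49.6 CPM in the case library (58 UMIs, interval 37.7 to 64.1). The ratio was 7.01-fold, or 2.81 on the log2 scale (1.19 to 5.13). When ECs were taken from clusters in place of gates, the change was 1.17, and in gated ECs of cluster 10 it was 1.66 with an interval that held 0 (-0.15 to 4.08). Gated ECs of cluster 12 held 42 of the 58 case UMIs (80.7 CPM, 123 cells). The 7 control cells of cluster 12 had no Itga1 UMI (interval up to 77.2 CPM), so no ratio could be given there. The level of Itga1 in VSMCs was thus 10.7 times that in ECs in the control library (3.67 to 52.2) and 1.49 times in the case library (1.14 to 1.97).

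Itga11 (alpha 11, the receptor of fibroblasts for fibrillar collagens) was the only member of at least 10 CPM past 1.5-fold in fibroblasts. It stood at 11.1 CPM in control fibroblasts (92 UMIs, interval 8.92 to 13.6) and at 29.9 CPM in case fibroblasts (237 UMIs, interval 26.2 to 34.0), a log2 change of 1.43 (1.08 to 1.80), or 2.70-fold. In cells of 3000 to 10000 UMIs the change was 0.70. It was 1.13 (0.64 to 1.65) in fibroblasts of cluster 2, the cluster with the largest share of case fibroblasts and the highest level in both libraries among clusters 2, 5 and 6 (20.03 and 43.9 CPM). In clusters 5 and 6 it was 0.74 (-0.13 to 1.61) and 0.87 (0.0040 to 1.75), so the value in each cluster was smaller than the pooled one, and these differences were not tested. In VSMCs Itga11 was at 18.1 and 16.01 CPM, so that VSMCs were above fibroblasts in the control library by 1.64 times (1.28 to 2.10) and fibroblasts above VSMCs in the case library by 1.87 times (1.55 to 2.25). At 1000 UMIs per cell, 1.24% of control fibroblasts (0.57 to 2.34) and 3.05% of case fibroblasts (2.22 to 4.07) had an Itga11 UMI. Unthinned, the shares were 10.7% and 12.5%. ECs had 1 UMI of it in each library and macrophages 0 and 1.

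The fibroblasts were split by Postn, Gfpt2 and Pi16 (at least 3, 10 and 5 UMIs per 10000, with cuts set after the data had been seen). Case fibroblasts with Postn numbered 195, against 18 in the control library, and had the highest Itga11 level, 53.4 CPM (41.1 to 68.2). Fibroblasts outside the named subclasses stood at 9.67 CPM in the control and 38.0 CPM in the case library, a log2 change of 1.97 (1.14 to 2.91). In Pi16-positive fibroblasts the values were 14.6 and 31.1 CPM, a change of 1.09 (0.44 to 1.75), and in Gfpt2-high fibroblasts 8.50 and 15.6 CPM, a change of 0.88 (0.22 to 1.55). Itga11 was therefore higher in the case library in the 3 subclasses below the Postn cut, beyond counting error. Cells of these subclasses can still hold Postn UMIs. The 18 control cells with Postn held 4 UMIs of Itga11 (32.7 CPM, interval 8.92 to 83.8) and carried Itga8 at 1768 CPM, far above the other fibroblasts.

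**Figure D5:**
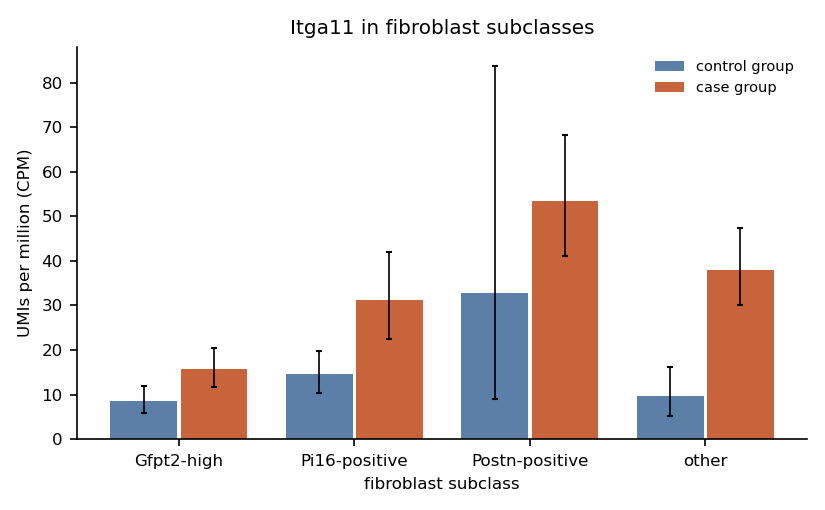
Level of Itga11 (CPM, linear axis from 0) in 4 subclasses of fibroblasts, control in blue and case in orange, with exact Poisson 95% intervals. The intervals of the 2 libraries were apart for Pi16-positive fibroblasts and for those outside the named subclasses, and overlapped slightly for Gfpt2-high ones. The control value of Postn-positive fibroblasts rests on 4 UMIs in 18 cells.

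Itga7 (alpha 7, the laminin receptor of muscle cells) stood at 131 CPM in control VSMCs (1707 UMIs) and 126 CPM in case VSMCs (1881 UMIs), a log2 change of -0.06 (-0.16 to 0.03). It was at 8.30 and 10.2 CPM in fibroblasts and at 2.36 and 3.42 CPM in ECs. Its level in VSMCs was 15.8 times (12.4 to 20.4) and 12.3 times (9.83 to 15.5) that in fibroblasts. VSMCs did not separate from the few Schwann cells, over which the ratio was 2.07 (0.95 to 5.65) in the control and 1.21 (0.72 to 2.22) in the case library. The change of Itga7 in VSMCs did not exceed counting error.

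Itga9 (alpha 9, a receptor for tenascin C and osteopontin) was at 29.5 CPM in control VSMCs (385 UMIs, interval 26.7 to 32.6) and 18.5 CPM in case VSMCs (278 UMIs, interval 16.4 to 20.9). The log2 change was -0.67 (-0.90 to -0.44), the only fall past 1.5-fold among the members in VSMCs, but it was within 1.5-fold under TMM scaling (-0.55), with cells weighted equally (-0.57), with cells thinned to 1000 UMIs (-0.56) and in VSMCs of cluster 1 (-0.51). The Itga9 change was -0.77 (-1.25 to -0.31) in VSMCs with a Notch1 UMI, -0.62 (-1.14 to -0.11) in Spp1-high VSMCs and -0.68 (-1.0 to -0.37) in the rest. It was uneven between clusters, and these differences were not tested. In cluster 4 it was -0.26 (-0.82 to 0.26) and in cluster 8 it was 0.74 (-0.46 to 1.94). In clusters 7 and 9 it was -1.15 (-1.91 to -0.42) and -1.53 (-2.50 to -0.59). In cluster 3, with 8 control UMIs, it was -1.28 (-2.32 to -0.03). Fibroblasts held 46 and 24 UMIs and ECs 3 and 4.

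Among the beta chains, Itgb1 (beta 1, the partner of most alpha chains listed here) was found in every class. It stood at 1389 CPM in control VSMCs (1369 to 1410) and 1054 CPM in case VSMCs (1037 to 1070), a log2 change of -0.40 (-0.43 to -0.37). The change was below 0 in all 6 clusters, from -0.46 in cluster 8 to -0.23 in clusters 4 and 9. ECs were at 1015 and 749 CPM, a change of -0.44 (-0.61 to -0.27), while the median change of all genes in ECs was -0.21. In fibroblasts the order was the other way, at 476 and 530 CPM, a change of 0.15 (0.09 to 0.22). By cluster it was 0.53 (0.41 to 0.65) in fibroblasts of cluster 2, with -0.10 (-0.21 to 0.0031) in cluster 5 and 0.08 (-0.07 to 0.23) in cluster 6. By subclass it was 0.22 (0.13 to 0.31) in Gfpt2-high and 0.09 (-0.05 to 0.24) in Pi16-positive fibroblasts. In those outside the named subclasses it was -0.07 (-0.20 to 0.07). In Postn-positive fibroblasts, with 18 control cells, it was -0.52 (-0.82 to -0.20). These differences were not tested. Macrophages were at 440 and 509 CPM, with overlapping intervals (363 to 528 and 448 to 577).

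At 1000 UMIs per cell, 73.5% of control and 62.7% of case VSMCs had an Itgb1 UMI, against 31.4% and 39.5% of fibroblasts. Both Itga8 and Itgb1 were found in 68.4% of control VSMCs (65.7 to 71.1) and 55.8% of case VSMCs (53.9 to 57.7). Without thinning the 2 were found together in 96.6% and 95.5%. Itga5 with Itgb1 was found in 3.67% of control VSMCs (2.66 to 4.93) and 5.26% of case VSMCs (4.44 to 6.18) at 1000 UMIs. Itga7 with Itgb1 was found in 9.62% and 8.27%, and Itga1 with Itgb1 in 6.29% and 4.46%. RNA of both chains in a cell does not show that the receptor was formed.

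Itgb5 (beta 5, a partner of alpha v that binds vitronectin) was at 93.6 and 81.3 CPM in VSMCs, a log2 change of -0.20 (-0.32 to -0.09), and at 62.1 and 46.6 CPM in fibroblasts, a change of -0.41 (-0.61 to -0.22). Macrophages had 61.2 CPM in the control library (16 UMIs, interval 35.0 to 99.4) and 99.0 CPM in the case library (48 UMIs, interval 73.0 to 131), and ECs had 14.2 and 16.2 CPM. Itgb3 (beta 3, the other main partner of alpha v) was scarce, with 37 and 42 UMIs in VSMCs (2.84 and 2.80 CPM), 12 and 9 in fibroblasts and 0 and 1 in ECs. Its change in VSMCs was -0.02 with an interval of -0.69 to 0.66, so no direction was detectable at this depth.

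The ECs of the 2 libraries also differed in markers of lymphatic endothelium. All 6 lymphatic EC markers together stood at 186 CPM in control ECs, where 3 of the 6 were at 0, and at 439 CPM in case ECs, where none was. Prox1, the defining transcription factor, had 1 UMI in control and 90 in case ECs, and Lyve1 had 0 and 81. An EC with a UMI of either was 1 of 55 in the control and 40 of 254 in the case library. Without these cells the log2 changes in ECs were 3.09 for Itga1, 0.86 for Itga5 and 1.90 for Itgav. A lymphatic EC can lack a UMI of both genes, and the part of lymphatic ECs in the changes was not tested. The pericyte and microvascular mural markers together went the other way, with 288 CPM in control and 81.2 CPM in case ECs, mostly from Rgs5 (114 and 80 UMIs). Cspg4 (11.8 and 2.57 CPM) was also lower, Abcc9 (7.08 and 8.55 CPM) and Kcnj8 (0 and 2 UMIs) were not, and Notch3 and Higd1b had no UMI. The part of these markers in the changes was not tested. ECs with a Plvap or Emcn UMI numbered 11 of 55 and 103 of 254. In these Itga5 was at 118 and 187 CPM (change 0.66, interval -0.29 to 1.77), and in the other ECs at 85.5 and 155 CPM (0.86, interval 0.26 to 1.503). Itga1 was at 11.8 CPM from 1 UMI and 58.6 CPM in ECs with Plvap or Emcn, and at 5.90 CPM from 2 UMIs and 43.7 CPM in the others.

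Further lists of other cell types were also summed in VSMCs. Pericyte and microvascular mural markers together stood at 341 and 373 CPM in control and case VSMCs and at 261 and 239 CPM in fibroblasts. In VSMCs the highest were Abcc9 (169 and 220 CPM), which was higher in the case library, and Cspg4 (111 and 84.1 CPM), which was lower. Kcnj8 (50.1 and 55.4 CPM), Notch3 (9.74 and 11.6 CPM) and Rgs5 (0.61 and 1.80 CPM) were higher there, and Higd1b had no UMI. Platelet markers summed to 3.61 and 0.40 CPM in control and case VSMCs, with Ppbp at 0 in both, and reached 4899 and 2149 CPM in macrophages, nearly all of it Pf4. Striated muscle markers summed to 142 and 83.3 CPM in VSMCs, against 13.4 and 11.2 CPM in fibroblasts. In VSMCs they were mostly Des (943 and 692 UMIs) and Acta1 (681 and 367 UMIs), both lower in the case library. Ckm (13.5 and 8.41 CPM) and Mylpf (0.61 and 0.13 CPM) were also lower there. Tnnt3 (3.38 and 3.47 CPM) and Myh2 (0.15 and 0.60 CPM) were not. The part of any striated muscle cells in the changes of the members was not tested.

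Cells that passed both the VSMC and the fibroblast gate carried Itga8 at 2363 CPM in the control (141 cells) and 1577 CPM in the case library (136 cells), between the levels of the 2 classes. Their Itgb1 was at 1112 and 740 CPM and their Itga11 at 20.6 and 30.0 CPM. Whether a cell that passed both gates was a single cell or a doublet was not tested. Schwann cells, at 19 and 45 cells, had 464 and 770 CPM of Itgb1 from 44 and 104 UMIs, and Itga7 at 63.3 and 104 CPM from 6 and 14 UMIs.

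Of the 16 other integrin subunits 15 were listed, and most were scarce in the wall. Itga3, a laminin receptor chain, was the only one with a mean of at least 10 CPM in VSMCs (8.98 and 12.5 CPM), and 0 reached it in fibroblasts. In ECs Itgb4, the partner of Itga6 in the laminin receptor of hemidesmosomes, was at 96.8 and 130 CPM, and Itga6 at 23.6 and 41.9 CPM from 10 and 49 UMIs. Macrophages carried Itgb2, the beta chain of the leukocyte integrins, at 80.4 CPM (21 UMIs) and 260 CPM (126 UMIs), and Itgax at 115 and 105 CPM.

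Among the RGD and matricellular ligands, 14 of 18 genes were tested in VSMCs, of which 0 were up and 1, Ccn1, was down past 1.5-fold (444 and 262 CPM, log2 change -0.76). Ccn2 was next at -0.52. The median of the list was -0.32, against -0.13 of all genes, of which 5.56% were up and 15% down. Fn1, the ligand of Itga5 and Itga8, was at 317 and 237 CPM in VSMCs, at 972 and 1375 CPM in fibroblasts and at 4024 and 2277 CPM in ECs, a change of -0.82 (-0.91 to -0.73). Npnt, nephronectin, was at 42.4 and 33.0 CPM in VSMCs and at most 3.42 CPM in the 3 other classes. Tnc, tenascin C, had only 27 and 30 UMIs in VSMCs.

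In fibroblasts 3 of 15 tested RGD and matricellular ligands were up and 1 was down, against 6.39% and 13.8% of all genes. Postn, periostin, was at 17.1 CPM (142 UMIs) in control and 286 CPM (2263 UMIs) in case fibroblasts, a log2 change of 4.06 (3.82 to 4.32). Thbs2 was at 41.5 and 167 CPM, a change of 2.01, and Thbs1 at 12.5 and 38.6 CPM, a change of 1.63. Fbln5, fibulin 5, was down, at 267 and 176 CPM (-0.60), and Tgfbi was at 97.0 and 69.2 CPM (-0.49). In ECs 13 were tested, with 2 up (Postn and Ccn2) and 4 down (Fn1, Spp1, Fbln5 and Emilin1), against 18.2% and 32.5% of all genes. Spp1, osteopontin, had 178 UMIs in control and 15 in case ECs.

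Of the 18 collagen and laminin ligands, 16 were listed and tested in VSMCs, and 4 were down past 1.5-fold and 0 up. They were Col4a2 (44.7 and 19.8 CPM), Col6a1 (105 and 55.9 CPM), Col5a2 (67.6 and 40.6 CPM) and Col14a1 (32.3 and 19.1 CPM), with log2 changes of -1.17, -0.91, -0.74 and -0.76. Lama4 stood at 59.9 and 60.0 CPM. In fibroblasts 1 of 15 was up, Lama4 (33.7 and 53.7 CPM, change 0.67), and 0 were down, with Col4a1 at 241 and 338 CPM and Col14a1 at 483 and 335 CPM within 1.5-fold. In ECs 5 of 14 were up (Col4a1, Col5a1, Col15a1, Col18a1 and Lamb1) and 2 down (Col5a2 and Col14a1). The medians of the list were -0.38, -0.11 and 0.36 in VSMCs, fibroblasts and ECs, against -0.13, -0.08 and -0.21 of all genes. Of all genes 5.56%, 6.39% and 18.2% were up and 15%, 13.8% and 32.5% down in these classes.

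Of 35 focal adhesion and linker proteins, 32 were tested in VSMCs, with 0 up and 5 down (Tln2, Rsu1, Ptk2, Vasp and Itgb1bp1). Vasp, an actin regulator, was at 75.4 and 48.2 CPM (-0.64), and Itgb1bp1, which binds the tail of the beta 1 chain, was at 39.7 and 24.7 CPM (-0.69). Flna, filamin A, was at 2478 and 2793 CPM (0.17), Src at 46.7 and 64.8 CPM (0.47) and Csrp1 at 1984 and 1489 CPM (-0.41). In fibroblasts 2 of 25 were up (Src and Git1) and 2 down (Tgfb1i1 and Itgb1bp1), with Vcl, vinculin, at 67.6 and 91.3 CPM (0.43). In ECs 5 of 33 were up (Tgfb1i1, Bcar1, Actn1, Vasp and Arhgef7) and 8 down. The medians were -0.10, 0.05 and -0.04 in the 3 classes, so the list as a whole lay near all genes in VSMCs. Of all genes 5.56%, 6.39% and 18.2% were up and 15%, 13.8% and 32.5% down, so 5 of 32 down in VSMCs is close to the share of all genes.

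The genes whose levels were most like those of a member were sought over 8 points, the 4 classes with VSMCs, fibroblasts, ECs and cells of both gates in the 2 libraries, among 2229 genes. Points of a library share its depth. For Itga8 these were Casq2, Lmod1 and Speg (Pearson r of log2 levels 0.998, 0.998 and 0.997), and for Itga7 Dmpk, Myh10 and Dipk2a (0.997, 0.990 and 0.987). For Itgb1 they were Scaf11, Hexim1 and Pja2 (0.990, 0.973 and 0.972), for Itga5 Akap2, Dusp2 and Mecom (0.954, 0.952 and 0.944), and for Itga11 Cpq, Loxl1 and Prelp (0.962, 0.962 and 0.955). The likeness of Itgav was the lowest among the members, with Ncoa4 at 0.895. Lmod1, leiomodin 1, is a known gene of smooth muscle, and Casq2 a calcium store protein of muscle.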

How the data were processed

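The authors deposited UMI counts for 32623 genes and both libraries in a single table, made with Cell Ranger 3.1.0 (per the file header); the submitters' processing notes name Seurat and the build Rnor_6.0. The deposited barcodes were called cells that had not passed quality control, and no empty droplets were analysed here. Barcodes carry 1 of 2 suffixes, and these were assigned to the groups by the number of barcodes that the study states for each group before quality control.

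Cells with more than 20% mitochondrial UMIs were removed, as were those over 2 SD from their library's mean in UMIs or in genes (both as log10) and those over 3 robust SD from the line of genes on UMIs. Kept cells of at least 1000 UMIs passed a gate when at least 2 markers of a class were found and these held 0.5% (VSMC), 1% (fibroblast), 0.05% (EC), 0.15% (macrophage or Schwann cell) or 0.03% (T cell) of the UMIs. Gates and subclass cuts were chosen with the values in view. Pecam1 and Col1a2 had been planned as markers but are not listed. Between a value 1.5 times lower and 1.5 times higher than the gate lay 165 control and 230 case cells for VSMCs, 199 and 439 for fibroblasts and 19 and 54 for ECs. No gate was passed by 96 control and 251 case cells, and 13 and 42 passed several. Clusters were made by Leiden (resolution 0.8, 2000 variable genes, 30 principal components, 20 neighbours). Doublets were left in, since Scrublet marked only 6 control and 0 case cells.

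UMIs were summed over cells and given as CPM with exact Poisson intervals, changes as log2 ratios with exact conditional intervals, and shares with exact Clopper-Pearson intervals. PCR copies are removed by UMIs, but all intervals cover counting error only. The steps were tested on simulated counts. The named genes were the 10 subunits, per pathway list and in VSMCs and fibroblasts the 2 that rose most and the 2 that fell most among genes of at least 50 CPM that were no gate marker, and per subunit the 3 genes most like it among those of at least 100 CPM. Other list members named are those past 1.5-fold or known ligands, and were chosen after their values were seen. The members and lists were chosen with earlier results of these data known. Itgam, Col6a3 and Hspg2 are not listed. Sequences are from RefSeq (GRCr8), and their coordinates are not those of the build used for counting. The tools were scanpy 1.11.5 and leidenalg 0.10.2 for clusters, scipy 1.17.1 for intervals and, for TMM factors only, edgeR 4.0.16 under R 4.3.3. Scripts were written in Python 3.11.15.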

Additional observations from a re-analysis of the deposited data

Results flagged for a closer look

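The change of Itgav took opposite directions in 2 classes, with a log2 ratio of case over control of -0.56 in VSMCs and 1.82 in ECs, where the control value rests on 4 UMIs and ECs with a Plvap or Emcn UMI had a change of 0.06. Among the clusters of VSMCs, the interval of the Itgav change lay below 0 in cluster 1 (-0.65) and held 0 in clusters 3, 4, 7, 8 and 9. Itgb1 was lower in the case library in VSMCs (-0.40) and ECs (-0.44) and higher in fibroblasts (0.15). By cluster of fibroblasts the change was 0.53 in cluster 2, -0.10 in cluster 5 and 0.08 in cluster 6. The intervals of clusters 5 and 6 held 0. Each interval of a whole class excluded 0 with CPM, where the median change of all genes was -0.13 in VSMCs, -0.08 in fibroblasts and -0.21 in ECs. The differences between classes were not tested, since each group had 1 library.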

How the results depend on the processing

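Results were recomputed under other settings of gate, cell filter, doublets, scaling, depth and floor, and under 4 that were added after the data had been seen (removal of the highest doublet scores, cells of 3000 to 10000 UMIs, VSMCs of cluster 1, and ECs without a Prox1 or Lyve1 UMI). Itga5 in VSMCs stayed past 1.5-fold upward in every one of these (log2 0.70 to 1.17), Itga11 in fibroblasts in all but the floor of 50 CPM, which it does not reach (0.70 to 1.5). In ECs Itga5 (0.65 to 1.32), Itga1 (1.17 to 3.09) and Itgav (1.46 to 2.10) kept their direction, while Itga1 and Itgav are below a floor of 50 CPM. The number of subunits past 1.5-fold in VSMCs, 2 as reported, was 1 under TMM scaling, with cells thinned to 1000 UMIs and with a floor of 50 CPM, 3 under the stricter gate and 4 in cells of 3000 to 10000 UMIs. It stayed 2 with cells weighted equally and in cluster 1, but with Itgav down in place of Itga9. Of all genes in VSMCs, 366 of 6586 were up and 988 down as reported. Under TMM they were 563 and 628 of 6580, and in thinned cells 578 and 1201 of 6600. With a floor of 50 CPM they were 196 and 397 of 2522. Under the stricter gate they were 361 and 978 of 6588, and in cells of 3000 to 10000 UMIs 710 and 1061 of 6597. With cells weighted equally they were 369 and 938 of 6607, and in cluster 1 they were 415 and 1118 of 6429. In fibroblasts the number of subunits, 1 as reported, was 2 with classes from clusters and 4 in thinned cells. It was 3 in cells of 3000 to 10000 UMIs (Itga8 and Itgb5 down) and without a floor. With a floor of 50 CPM it was 0. Of all genes in fibroblasts, 397 of 6209 were up and 859 down as reported. With classes from clusters they were 421 and 847 of 6286, and in thinned cells 752 and 1270 of 6323. In cells of 3000 to 10000 UMIs they were 774 and 1286 of 6335. Without a floor they were 3540 and 3778 of 16759, and with a floor of 50 CPM 163 and 332 of 2373. In ECs the number of subunits, 3 as reported, was 4 with classes from clusters (Itga7 down) and in thinned cells (Itgb1 down). It was 5 in cells of 3000 to 10000 UMIs (Itgb5 up and Itga8 down). Without a floor it was 6 (Itgb3, with a single UMI, among them), and with a floor of 50 CPM it was 1. Of all genes in ECs, 1259 of 6908 were up and 2246 down as reported. With classes from clusters they were 1128 and 2077 of 6962, and in thinned cells 1592 and 3050 of 6700. In cells of 3000 to 10000 UMIs they were 1569 and 2262 of 6779. Without a floor they were 4065 and 4339 of 13075, and with a floor of 50 CPM 479 and 690 of 2683. Apart from the floors, whose construction changes the genes counted, the cause of these different counts was not tested. Scrublet marked 6 cells, so its removal tests little. Itga1 and Itgav had no UMI in thinned control ECs and thus no ratio, but both were counted as up among the 4 there. The libraries differ in depth, ECs are few, and classes with few cells limit all values that rest on under about 10 UMIs. No paired analysis of the left and right arteries of a rat was possible. Each group has 1 library in which the arteries of both rats were pooled, and the labels give no replicate numbers.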
